A study of Homo sapiens with 8 samples.

Results

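The complement and coagulation genes were examined in HepG2 cells, a human liver carcinoma line, with or without ectopic expression of GRHL2, a transcription factor of epithelial cells. The list of 45 symbols was set by function, covering complement components and their regulators, clotting factors, anticoagulants and fibrinolytic proteins. It was chosen with earlier results of these data known. Of the 45 symbols, 40 were present among the 17561 genes of the expression table. The other 5 (C2, CFB, C6, F9 and KLKB1) had no row under these symbols and are not analysed here. Cells received either pGRHL2, a plasmid in which an EEF1A1 promoter drives a flag-tagged GRHL2 cDNA together with enhanced green fluorescent protein, or the vector pcDNA3, and RNA was collected 48 h later. The plasmids therefore differed in more than the GRHL2 insert, transfection was transient, and the share of cells that took up plasmid was not given in the sources used here. All cells were grown on gelatin in William's E medium with 10% serum, 20 mU/ml insulin and 50 nM dexamethasone as the labels state it, a glucocorticoid that both groups received. Each plasmid had 4 independent replicates (libraries 1 to 4).

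Complement and coagulation are cascades of plasma proteases and cofactors that are secreted, for the most part, by hepatocytes. In complement, the classical pathway (C1r, C1s) and the lectin pathway (MBL2 with the MASP proteases) cleave C4 and C2, whose fragments activate C3. C5 to C9 then assemble a pore in the target membrane. In coagulation, a chain of factors ends with thrombin (from F2), which turns fibrinogen into fibrin, while plasmin (from PLG) dissolves the clot. Many of these genes, the fibrinogen chains and C3 among them, belong to the acute phase response of the liver.

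Values were on a log2 scale related to transcript length, so that levels of different genes are compared here as levels per length. For each gene, the average of the pGRHL2 and pcDNA3 values of the same number was identical for all 4 numbers. The 8 values of a gene therefore hold 4 differences between same-numbered libraries (called pairs 1 to 4) around 1 mean, and when a pair differs strongly the values cannot show which of its libraries departed. The log2 FC (pGRHL2 against pcDNA3) is given with the SD of the 4 pair differences and with the p-value of limma, adjusted over all 17561 genes (Benjamini-Hochberg). GRHL2 itself was between 6.61 and 7.25 in the pcDNA3 libraries and between 16.22 and 16.87 in the pGRHL2 libraries, a log2 FC of 9.48 ± 0.57 (SD, n = 4 pairs). The pcDNA3 values lay near the median level of all genes (6.72). By RT-qPCR, however, the authors found GRHL2 to be low or undetectable in their cell lines under basal conditions. These measures were not compared here, and the pcDNA3 values do not establish that the cells express GRHL2. The 8 hepatocyte markers listed (ALB, APOA1, APOB, TTR, AFP, TF, APOC3 and RBP4) were all in the table, with means from 7.11 to 17.1. Of other cell types, 3 of 6 leukocyte, 1 of 5 endothelial and 3 of 6 stromal markers had a row, and PTPRC, CDH5 and DCN had none. The summed level (log2) of the leukocyte markers, carried by LYZ, ranged from 13.1 to 13.3 in pcDNA3 and from 13.2 to 13.4 in pGRHL2. That of the stromal markers ranged from 8.49 to 8.56 and from 8.53 to 8.60, and that of the single endothelial marker, PECAM1, from 5.37 to 5.47 and from 5.39 to 5.49. The 5 cholangiocyte markers listed (KRT7, KRT19, EPCAM, SOX9 and CFTR) were all in the table. Their summed level ranged from 14.02 to 14.36 in pcDNA3 and from 14.11 to 14.45 in pGRHL2. The log2 FC was above 0 for all 5 (median 0.11), and 0 were called by limma. The table holds no counts and the depth behind its values is unknown. In bulk RNA fewer expressing cells and less RNA per cell cannot be told apart.

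HepG2 cells expressed these genes over a wide range. Of the 40 genes, 10 were among the tenth of all genes with the highest level per length, whereas 18 lay under the median of all genes. C3, the protein on which all complement pathways converge, led with a mean value of 14.39, followed by A2M, a broad protease inhibitor, with 14.16, and TFPI, the inhibitor of tissue factor, with 12.57. FGG came next with 12.20. The lowest value of C3 (14.296) lay only just above the highest of A2M (14.292), and the ranges of TFPI and FGG overlapped. Because the pair means are equal, such ranges hold no variation between replicate numbers. The order of C3 and A2M is therefore not settled by them. F2 (11.33), VTN (11.26), FGA (11.25) and PROC (11.23) followed at values whose ranges over the 8 libraries overlapped, so that their order is not resolved. At the other end, C9 had a mean of -0.15, KNG1 of 1.65, MASP1 of 1.86, PLG of 2.20 and F13B of 2.58. Members of the terminal complex spanned much of this range, with C5 at 8.51, C8G at 8.11, C8A at 6.48, C8B at 4.83 and C9 lowest among them.

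**Figure D1:**
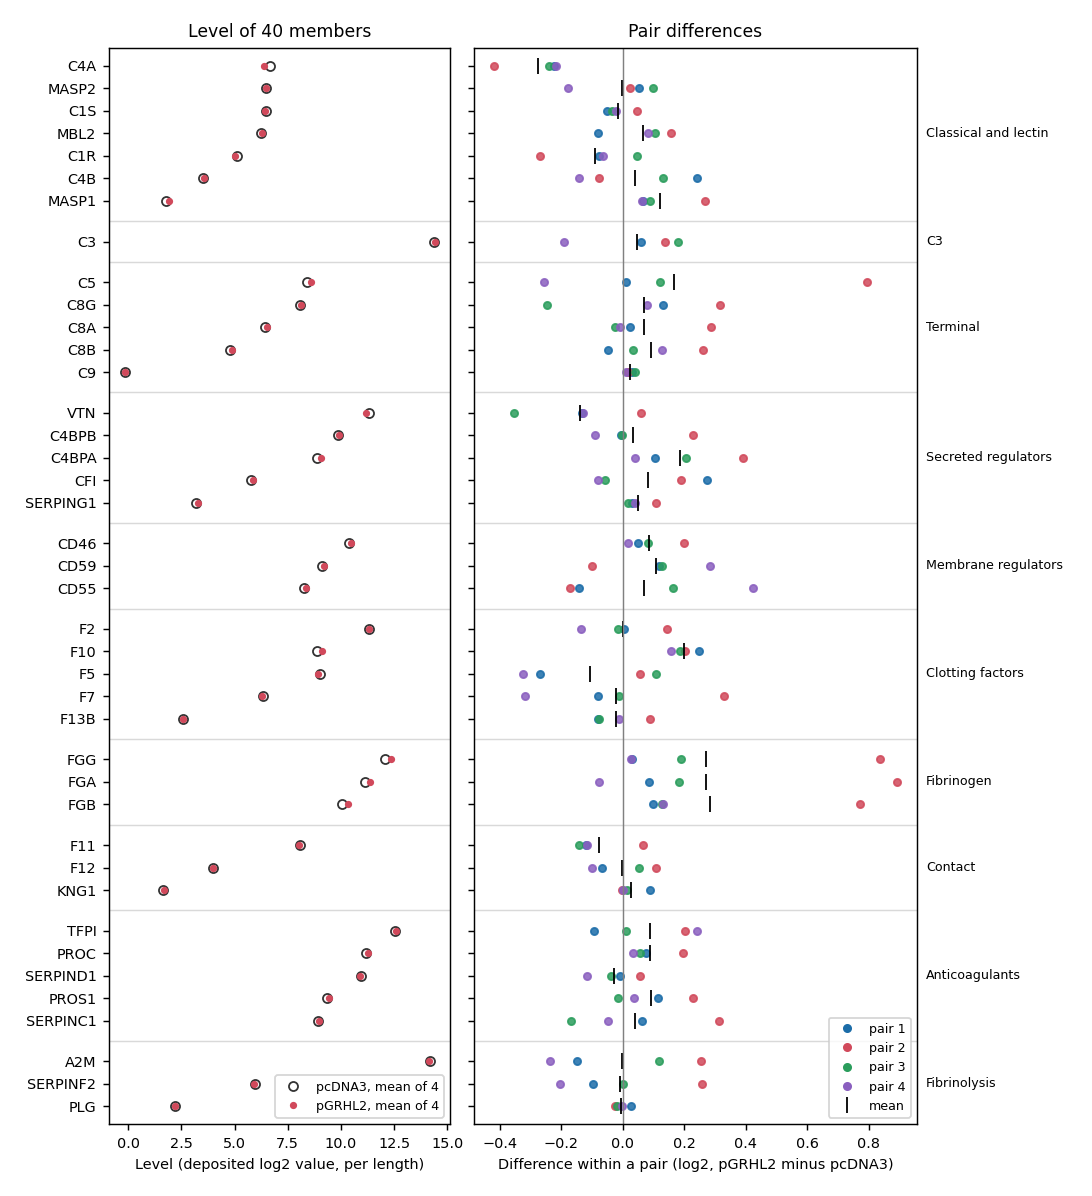
Left, mean level of each of the 40 genes (deposited log2 value, per length; open circles, pcDNA3; red points, pGRHL2; n = 4 each), grouped by role. Right, the difference between the pGRHL2 and pcDNA3 libraries of each pair (log2, colored by pair) with the mean of the 4 pairs as a bar. Levels span from -0.15 (C9) to 14.39 (C3), whereas the means of the differences stay between -0.27 (C4A) and 0.28 (FGB), and pair 2 holds the 4 differences above 0.5.

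The comparison of pGRHL2 with pcDNA3 asked whether the complement and coagulation genes changed upon GRHL2 expression. C4A, an activator of the classical pathway, was the only one of the 40 genes with a limma adjusted p under 0.05, and it was lower in pGRHL2. This is 2.50% of the 40 genes, compared with 0.501% of all 17561 genes called lower and 2.19% called in either direction. No gene of the list was called higher (0 of 40 in limma with the pairs as a block), against 1.69% of all genes. An unadjusted limma p under 0.05 was found for 6 of the 40 genes (15%), 5 higher (MASP1, C9, C4BPA, F10 and FGB) and 1 lower (C4A), close to the 16.0% found over all genes. The limma fit that ignored the pairs called 4 of these genes higher (C4BPA, C9, F10 and MASP1, adjusted p from 0.0011 to 0.031), against 10.4% of all genes called higher in the same fit. It counts 6 residual degrees of freedom, whereas 4 pair differences hold 3.

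The differences were small. The median log2 FC over the 40 genes was 0.043, against 0.0017 over all genes, and 29 of the 40 had an absolute log2 FC under 0.1. The 95% limma interval lay within a 1.5-fold change in either direction for all 40, as it did for 99.6% of all genes. These bounds apply to the deposited values, and the rlog used by the authors shrinks differences of genes with few reads, which bears on the 9 genes with a mean value under 5. The libraries of the 2 plasmids did not overlap (all 4 pair differences had 1 sign) for 10 of the 40 genes, against 24.0% of all genes. In 9 of them (22.5%) pGRHL2 was higher, against 13.4% of all genes, and in 1 (2.50%) it was lower, against 10.5% of all genes.

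**Figure D2:**
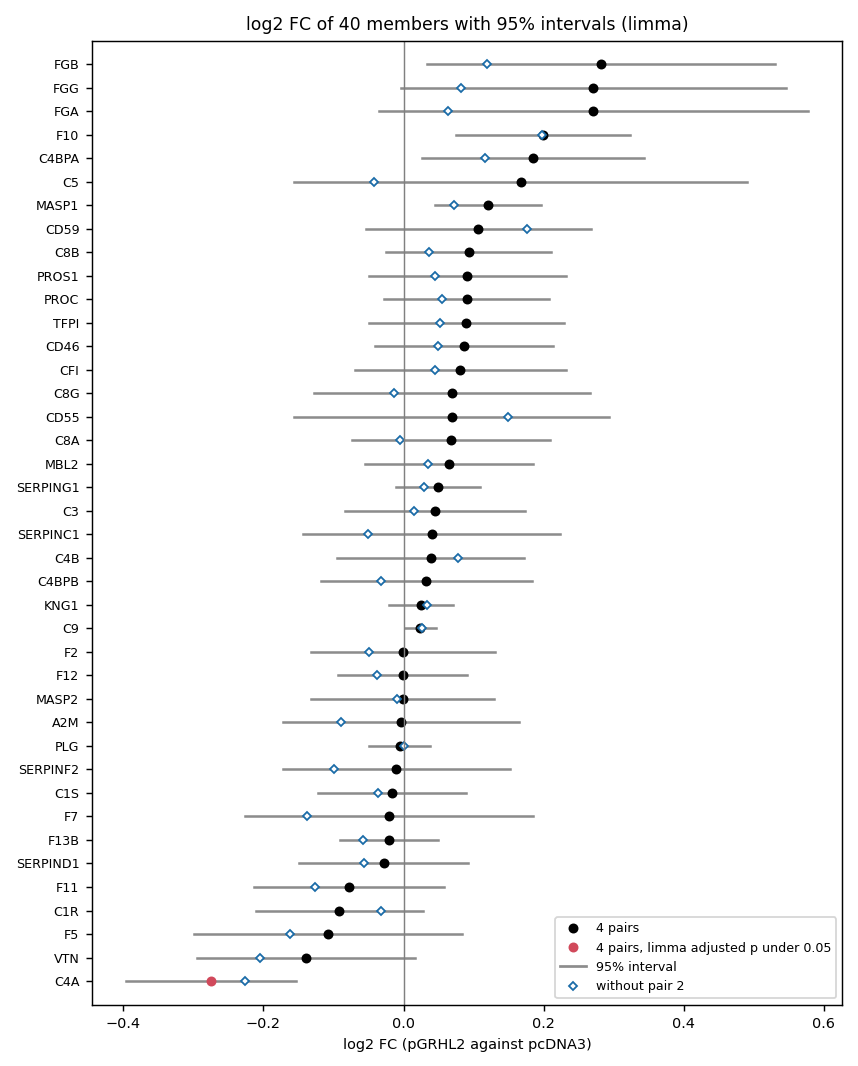
The log2 FC (pGRHL2 against pcDNA3, x axis) of each of the 40 genes from 4 pairs (points; red, limma adjusted p under 0.05) with its 95% limma interval (lines), and the log2 FC from the 3 pairs left without pair 2 (diamonds). C4A alone is marked as called, at -0.27 with an interval from -0.40 to -0.15. The fibrinogen chains and C5 show the widest gap between point and diamond.

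The classical and lectin pathway was represented by 7 genes, 0 of which were called higher and 1 lower, with a median log2 FC of -0.0014. C4A and C4B encode the isotypes of C4, the substrate of C1s and of the MASP proteases. They lie next to each other on chromosome 6 of hg38, C4A from 31982057 to 32002681 and C4B from 32014795 to 32035418 on the plus strand (GENCODE release 44). The C4A values were 6.63, 6.73, 6.64 and 6.63 in pcDNA3 libraries 1 to 4 and 6.41, 6.31, 6.40 and 6.41 in pGRHL2 libraries 1 to 4. The groups did not overlap, and pair 2 showed the largest gap. C4A thus fell, with a log2 FC of -0.27 ± 0.097 over the 4 pairs (SD) at a limma adjusted p = 0.038. Flipping the signs of its pair differences in an exact permutation test (two-sided) gave p = 0.125, the smallest value that 4 pairs allow. C4B was lower by 2.98 than C4A in mean value, and its groups overlapped. Its values were 3.42, 3.58, 3.47 and 3.61 in pcDNA3 and 3.66, 3.50, 3.61 and 3.47 in pGRHL2, which gave a log2 FC of 0.039 ± 0.18 (limma adjusted p = 0.822).

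The values of C4A and C4B are uncertain because the genes are near-identical copies. Of the 5278 stretches of 150 bases (the read length) in the longest coding C4A transcript, 4418 (83.7%) also occurred without a mismatch in C4B transcripts. The authors set a minimum alignment quality for counting, and how many reads of either gene passed it is not known here. When both genes were replaced by the mean of their values, the log2 FC became -0.12 (limma adjusted p = 0.286). By arithmetic this lies midway between the log2 FC of C4A and C4B. It weights both genes equally, although C4B was lower by 2.98 in mean value, so it cannot decide whether C4A changed. When C4A and C4B were summed on the linear scale, a choice made after seeing the data, the log2 FC was -0.24 (limma adjusted p = 0.062). The call of C4A was also lost in each of the 4 limma fits that left out a pair (adjusted p from 0.078 to 0.155). Its log2 FC in these fits stayed between -0.29 and -0.23. Calls fell over the whole table as well, to between 0.495% and 1.28% of all genes, against 2.19% with 4 pairs. Without replicates 1 to 4, 8, 13, 18 and 68 of all genes were called lower, against 88 with 4 pairs. Among genes with a mean value of at least 5, C4A was not called (limma adjusted p = 0.055), and 1.33% of those genes were. In addition, 11.5% of the C4A exon bases are shared with other annotated genes, C4A-AS1 and STK19, and reads were counted without regard to strand.

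Upstream of C4, the proteases C1R and C1S, which are cleaved in turn within the C1 complex, were expressed at 5.09 and 6.45. C1R was at 5.13, 5.22, 5.07 and 5.12 in pcDNA3 and at 5.05, 4.95, 5.11 and 5.06 in pGRHL2. It was lower in 3 of 4 pairs, with overlapping groups and a log2 FC of -0.091 ± 0.13 (limma adjusted p = 0.451). C1S differed by -0.016 ± 0.043. In the lectin pathway, MASP1 was higher in 4 of 4 pairs but at a low level, with a log2 FC of 0.12 ± 0.099 (limma adjusted p = 0.109) that was 0.072 without pair 2. MBL2, which recognizes sugars on microbes, and MASP2, the protease that cleaves C4 and C2, had log2 FC of 0.065 ± 0.10 and -0.0014 ± 0.12, which passed no test.

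C3 is located at 6677704 to 6730562 of chromosome 19, and 11.7% of its exon bases are shared with another annotated gene. Such sharing was larger for CFI (29.4%), VTN (17.3%), KNG1 (14.1%), F11 (13.8%) and C9 (12.4%). Its values were 14.36, 14.32, 14.30 and 14.49 in pcDNA3 and 14.42, 14.46, 14.48 and 14.30 in pGRHL2. Pairs 1 to 3 were higher in pGRHL2 and pair 4 was lower, so that the groups overlapped. The log2 FC of 0.045 ± 0.17 was smaller than the spread between pairs (limma adjusted p = 0.773, 95% interval from -0.084 to 0.174).

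Among the 5 terminal components, 0 were called and the median log2 FC was 0.069. C5, whose cleavage starts assembly of the pore, had the largest spread of the 40 genes. Its values were 8.50, 8.11, 8.45 and 8.63 in pcDNA3 and 8.51, 8.90, 8.57 and 8.38 in pGRHL2. Only pair 2 departed widely, by 0.79, compared with 0.011, 0.12 and -0.26 in pairs 1, 3 and 4. The log2 FC of C5 was 0.17 ± 0.45 (limma adjusted p = 0.638) and became -0.042 without pair 2. C8A, C8B and C8G, the 3 chains of C8, had log2 FC of 0.068 ± 0.15, 0.093 ± 0.13 and 0.069 ± 0.23, and each of them had its largest increase in pair 2. C9, which polymerizes to form the pore, was higher in 4 of 4 pairs, but its log2 FC was only 0.024 ± 0.013 (limma adjusted p = 0.276).

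The regulators of complement fell into secreted and membrane-bound proteins. Of the 5 secreted and 3 membrane-bound regulators, 0 were called in either direction. C4BPA, the alpha chain of the C4b-binding protein, lies on chromosome 1 from 207104233 to 207144972. Its values were 8.90, 8.76, 8.85 and 8.94 in pcDNA3 and 9.01, 9.15, 9.06 and 8.98 in pGRHL2. These groups did not overlap, although pGRHL2 library 4 exceeded pcDNA3 library 4 by only 0.041. The log2 FC was 0.19 ± 0.15 (limma adjusted p = 0.235) and 0.12 without pair 2. C4BPB, the gene of the beta chain of the same protein, which lies beside it, had a log2 FC of 0.033 ± 0.14.

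VTN, vitronectin, blocks the terminal complex and is also an adhesion protein. Its values were 11.32, 11.23, 11.43 and 11.32 in pcDNA3 and 11.19, 11.28, 11.08 and 11.19 in pGRHL2. Pairs 1, 3 and 4 were lower and pair 2 was higher by 0.058, so that its log2 FC was -0.14 ± 0.17 (limma adjusted p = 0.369). CFI, the protease that degrades C3b and C4b, and SERPING1, the C1 inhibitor, had log2 FC of 0.081 ± 0.18 and 0.050 ± 0.041. CD46, CD55 and CD59 shield host cells and are made by most cell types. Their log2 FC were 0.087 ± 0.080, 0.069 ± 0.28 and 0.11 ± 0.16. CD55 and CD59 were lower in pair 2, by -0.17 and -0.10, and had their largest increases in pair 4, by 0.43 and 0.28.

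The 3 fibrinogen genes encode the chains of the protein that thrombin turns into fibrin. They form a cluster on chromosome 4, with FGB from 154563011 to 154572807 on the plus strand, and FGA from 154583126 to 154590742 and FGG from 154604134 to 154612967 on the minus strand. None of their exon bases is shared with another annotated gene. The 250 bases before their RefSeq start sites (GRCh38.p14) are printed here, as was planned for the fibrinogen chains. These neighbors also had the 3 largest log2 FC of the list. The capitals mark the short element GTTAAT of the hepatocyte factor HNF1 (here read on the opposite strand as ATTAAC) and the element CTGGGAA known from interleukin-6 responsive genes.
FGA, chr4:154590743-154590992, minus strand: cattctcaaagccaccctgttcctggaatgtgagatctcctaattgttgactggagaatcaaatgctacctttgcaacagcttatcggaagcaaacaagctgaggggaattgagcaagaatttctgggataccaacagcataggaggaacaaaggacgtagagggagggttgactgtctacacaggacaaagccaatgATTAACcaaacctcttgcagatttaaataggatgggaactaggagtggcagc
FGB, chr4:154562730-154562979, plus strand: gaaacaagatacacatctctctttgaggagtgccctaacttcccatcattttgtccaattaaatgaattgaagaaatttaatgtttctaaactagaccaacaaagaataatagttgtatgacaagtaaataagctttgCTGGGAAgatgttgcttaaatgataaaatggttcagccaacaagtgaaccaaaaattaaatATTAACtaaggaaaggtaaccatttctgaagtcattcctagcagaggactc
FGG, chr4:154612657-154612906, minus strand: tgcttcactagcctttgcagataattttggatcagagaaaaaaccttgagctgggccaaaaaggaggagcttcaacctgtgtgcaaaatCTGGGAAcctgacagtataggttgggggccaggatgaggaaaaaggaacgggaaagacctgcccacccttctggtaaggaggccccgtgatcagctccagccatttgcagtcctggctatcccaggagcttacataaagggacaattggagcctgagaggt
Counted from the start site, with -1 as the base before it, the HNF1 element begins at -52 in FGA and -51 in FGB. The interleukin-6 element begins at -112 in FGB and -161 in FGG. GENCODE places the FGG start further upstream than RefSeq, so that the FGG stretch lies within the annotated gene.

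FGA was at 11.21, 10.80, 11.16 and 11.29 in pcDNA3 libraries 1 to 4 and at 11.29, 11.70, 11.34 and 11.21 in pGRHL2 libraries 1 to 4. FGB was at 10.16, 9.83, 10.15 and 10.15 in pcDNA3 and at 10.26, 10.60, 10.28 and 10.28 in pGRHL2. FGG was at 12.18, 11.78, 12.10 and 12.18 in pcDNA3 and at 12.21, 12.62, 12.29 and 12.21 in pGRHL2. In all 3 genes pair 2 had the largest difference, whereas the other libraries lay close together. Because the pair means are equal, pcDNA3 library 2 was then necessarily the lowest and pGRHL2 library 2 the highest of the 8 values. FGA overlapped between the plasmids because pair 4 was lower by -0.078, while FGB and FGG did not overlap.

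The log2 FC was 0.28 ± 0.33 (SD, n = 4 pairs) for FGB, 0.27 ± 0.43 for FGA and 0.27 ± 0.38 for FGG, the 3 largest increases of the list, with limma adjusted p = 0.249, 0.378 and 0.321. These differences were not larger than the spread between pairs. In pair 2 the chains differed by 0.89 (FGA), 0.77 (FGB) and 0.84 (FGG), with a range over the chains of 0.121. This range was smaller in pair 1 (0.068) and pair 3 (0.062), where all 3 chains were higher in pGRHL2, and larger in pair 4 (0.209). In pair 4 FGA was lower (-0.078), while FGB (0.13) and FGG (0.027) were higher. Without pair 2, their log2 FC were 0.064 for FGA, 0.12 for FGB and 0.083 for FGG.

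**Figure D3:**
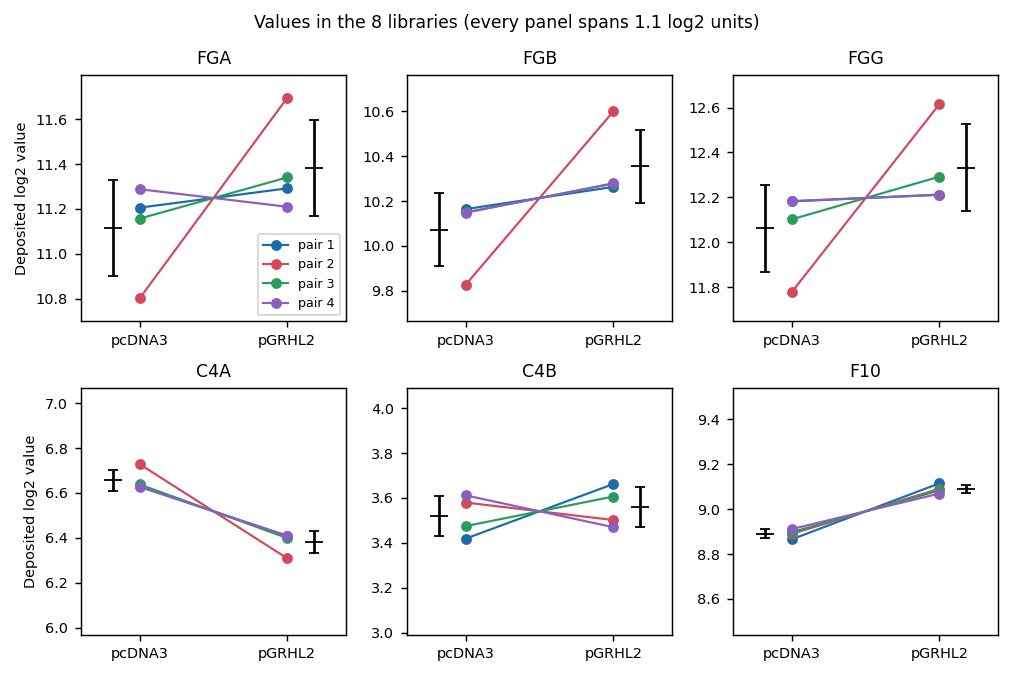
Deposited log2 value (y axis) of the fibrinogen genes, C4A, C4B and F10 in the 4 pcDNA3 and 4 pGRHL2 libraries, with lines joining same-numbered libraries and black bars showing mean ± SD (n = 4). In FGA, FGB and FGG pair 2 has the steepest line. C4A is lower and F10 higher in pGRHL2 in all 4 pairs, and the lines of C4B cross.

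Pair 2 also stood apart outside fibrinogen, where 30 of the 37 other genes were higher in pGRHL2, with a median difference of 0.14. Of all 40 genes, 33 (82.5%) were higher in pGRHL2 in pair 2, where 52.3% of all genes were, and their median difference in that pair was 0.17. In pairs 1, 3 and 4, 23, 25 and 16 of the 40 genes were higher, with medians of 0.024, 0.035 and -0.018. The corresponding shares of all genes were 51.8%, 51.6% and 51.5%. A difference above 0.5 occurred in 4 of the 40 genes in pair 2 (FGA, FGB, FGG and C5) and in 0 in the other pairs, whereas 0.325% of all genes exceeded it in pair 2. Without replicate 2 the median log2 FC of the 40 genes was 0.0077 in place of 0.043. Pair 2 also stood apart in the hepatocyte markers, all 8 of which were higher in pGRHL2 in that pair (median 0.32), while 2, 1 and 1 of the 8 were higher in pairs 1, 3 and 4. The part of a general hepatocyte shift in the pair 2 values of fibrinogen was not tested.

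**Figure D4:**
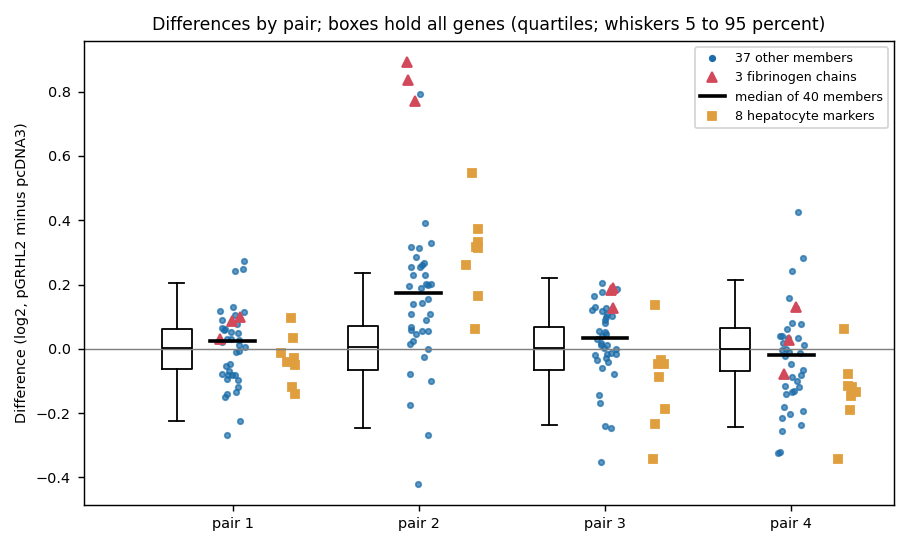
Difference between the pGRHL2 and pcDNA3 libraries of each pair (log2, y axis) for all genes (boxes, quartiles with whiskers from 5 to 95 percent), the 40 complement and coagulation genes (blue points; red triangles, fibrinogen chains; black bar, median) and 8 hepatocyte markers (orange squares). The median of the 40 genes is 0.17 in pair 2 and between -0.018 and 0.035 in the other pairs, and the orange squares are all above 0 only in pair 2.

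Of the 5 clotting factors outside the contact system, 0 were called and the median log2 FC was -0.021. F10, the factor that converts prothrombin to thrombin, had the smallest spread between pairs among the 5 largest increases. F10 is on the plus strand of chromosome 13, between 113122799 and 113149529, and 4.13% of its exon bases are shared with another annotated gene. Its values were 8.87, 8.89, 8.90 and 8.91 in pcDNA3 and 9.12, 9.09, 9.08 and 9.07 in pGRHL2. All 4 pairs were higher in pGRHL2, by 0.16 to 0.25, so that the libraries of the plasmids did not overlap. The log2 FC of F10 was 0.20 ± 0.038 (95% limma interval from 0.074 to 0.323), but its limma adjusted p was 0.108 and so it was not called. Without pair 2 the log2 FC was likewise 0.20. F10 was not among the genes whose promoters were planned to be printed. The 250 bases before its RefSeq start site are shown as the promoter of this gene, with the interleukin-6 element (on the opposite strand) in capitals, beginning at -107.
F10, chr13:113122549-113122798, plus strand: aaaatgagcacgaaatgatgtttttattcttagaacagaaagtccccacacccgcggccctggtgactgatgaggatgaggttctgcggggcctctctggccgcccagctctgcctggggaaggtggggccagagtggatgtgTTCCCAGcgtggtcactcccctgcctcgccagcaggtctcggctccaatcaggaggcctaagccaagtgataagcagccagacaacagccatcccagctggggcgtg

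F7, the partner of tissue factor, neighbors F10 on chromosome 13 and had a log2 FC of -0.021 ± 0.27, with differences from 0.33 in pair 2 to -0.32 in pair 4. F2, prothrombin, was at 11.33, 11.26, 11.34 and 11.40 in pcDNA3 and at 11.33, 11.40, 11.32 and 11.26 in pGRHL2. Its groups overlapped throughout, and the log2 FC was -0.00074 ± 0.11 (limma adjusted p = 0.997, 95% interval from -0.131 to 0.130). F5, the cofactor of activated F10, was at 9.09, 8.93, 8.90 and 9.12 in pcDNA3 and at 8.82, 8.99, 9.01 and 8.80 in pGRHL2. It was lower in pairs 1 and 4 and higher in pairs 2 and 3, which gave a log2 FC of -0.11 ± 0.22 (limma adjusted p = 0.606). F13B, the carrier subunit of the fibrin-crosslinking factor, differed by -0.021 ± 0.080.

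The contact system, which starts clotting on charged surfaces and releases bradykinin, was represented by F11, F12 and KNG1, of which 0 were called. F11 was at 8.11, 8.02, 8.13 and 8.11 in pcDNA3 and at 7.99, 8.09, 7.98 and 7.996 in pGRHL2. It was lower by -0.12 to -0.14 in pairs 1, 3 and 4 and higher by 0.067 in pair 2, with a log2 FC of -0.078 ± 0.097 (limma adjusted p = 0.597). The shared exon bases of F11 belong to F11-AS1, an antisense gene that unstranded counts cannot tell apart from it. F12 and KNG1, the kininogen that carries bradykinin, had log2 FC of -0.0013 ± 0.099 and 0.025 ± 0.044.

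Among the 5 anticoagulants, 0 were called and the median log2 FC was 0.090. TFPI was at 12.62, 12.47, 12.56 and 12.45 in pcDNA3 and at 12.52, 12.67, 12.57 and 12.69 in pGRHL2. It was higher in 3 of 4 pairs, with overlapping groups and a log2 FC of 0.090 ± 0.16 (limma adjusted p = 0.539). PROC, protein C, was higher in 4 of 4 pairs, although by only 0.090 ± 0.073, and PROS1, its cofactor protein S, differed by 0.091 ± 0.11. The thrombin inhibitors SERPINC1 (antithrombin) and SERPIND1 (heparin cofactor II) had log2 FC of 0.040 ± 0.20 and -0.028 ± 0.072. None of the 5 passed the test.

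Fibrinolysis and broad protease inhibition were represented by PLG, SERPINF2 (the plasmin inhibitor) and A2M, and 0 of these were called. A2M was at 14.24, 14.04, 14.11 and 14.28 in pcDNA3 and at 14.09, 14.29, 14.22 and 14.05 in pGRHL2. Pairs 2 and 3 were higher in pGRHL2 and pairs 1 and 4 were lower, and the log2 FC was -0.0038 ± 0.23 (limma adjusted p = 0.990). The value of A2M in pcDNA3 library 4 carried a stray semicolon in the table, which was removed. PLG and SERPINF2 had log2 FC of -0.0053 ± 0.023 and -0.010 ± 0.20.

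Motifs were searched on both strands in RefSeq windows of 300 bases, from 250 before to 50 after each start site, which were given for 31 of the 40 genes and for 27305 genes in all. C1S, C4A, C4B, C3, C8G, SERPING1, SERPINC1, SERPINF2 and A2M had no entry. The Grainyhead motif AACNNGTT, which GRHL proteins recognize, occurred in 3 of the 31 genes (CFI, CD46 and PLG), compared with 4.36% of all genes. The stretches around these matches are given because GRHL2 was the factor expressed, with the 8 letters of the motif in capitals.
CFI, chr4:109802176-109802235, minus strand: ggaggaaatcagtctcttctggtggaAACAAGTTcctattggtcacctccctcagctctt
CD46, chr1:207751887-207751946, plus strand: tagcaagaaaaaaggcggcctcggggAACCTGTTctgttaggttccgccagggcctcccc
PLG, chr6:160702095-160702154, plus strand: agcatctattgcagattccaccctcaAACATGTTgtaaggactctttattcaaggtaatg
None of the 3 genes with a match was called, and their log2 FC are given above. The full HNF1 motif of 13 letters occurred in 0 of the 31 genes and in 0.00733% of all genes. Its short element GTTAAT occurred in 11 of the 31 genes (C1R, MBL2, C5, C4BPA, CFI, F2, F13B, FGA, FGB, PROC and PLG), against 8.27% of all genes, and CTGGGAA in 6 (MASP2, C4BPB, F10, FGB, FGG and PLG), against 13.1%. GTTAAT and CTGGGAA were added to the search after the data had been seen. A match describes these letters and not a bound site.

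Other genes of the same pathways were examined from fixed lists. Of 26 further complement genes (C1q chains, factor H family, receptors and others) 6 were in the table, and of 26 further coagulation genes (tissue factor, plasminogen activators, receptors and others) 22 were. Over both lists, 0 genes were called higher or lower by limma, and an unadjusted p under 0.05 was found for 1 of the 6 and 2 of the 22. Their median log2 FC were -0.013 and 0.013. The smallest adjusted p of the complement list, picked after the values were seen, was that of C5AR1, the receptor of the C5 fragment C5a, with a log2 FC of 0.21 ± 0.11 that was higher in 4 of 4 pairs (limma adjusted p = 0.058). F3, tissue factor, which starts clotting together with F7 and was also picked after its value was seen, was lower in 4 of 4 pairs with a log2 FC of -0.14 ± 0.050 (limma adjusted p = 0.205). PROCR, the receptor of protein C and the other coagulation gene with an unadjusted p under 0.05, was higher in 4 of 4 pairs with a log2 FC of 0.13 ± 0.093 (limma adjusted p = 0.218).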

How the data were processed

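RNA-seq (paired-end, 150 bp) of 8 HepG2 libraries was used, 4 per plasmid, grouped by sample title. As described by the authors, reads were mapped to hg38 with Hisat2, exon reads were counted with HTSeq in union mode without strand, genes with few reads were removed, and the rlog of DESeq2 was related to mean transcript length. The submitters' processing notes list HISAT2 2.2.1, HTSeq 0.9.1 and DESeq2 1.40.2. The deposited values, labelled as FPKM, are on a log2 scale, since 3.71% are below 0 and, among the 1753 least variable genes with a known length, they fell with a slope of -0.78 on log2 length. In 17561 of 17561 genes, same-numbered libraries had equal pair means (largest spread 1.5e-13). This equality is not explained in the sources used here. Numbers were therefore fitted as a block, and the mirrored deviations leave the correlation check for pairing void. The table held 1 stray character, which was removed, and 0 columns of other samples.

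All 17561 genes were fitted with limma 3.58.1 in R 4.3.3 (lmFit, eBayes with trend, Benjamini-Hochberg, threshold of 0.05), without a filter on low values. The fit was tested on simulated data. Genes given in full were those called, the 5 largest increases and decreases, the 5 highest levels, the fibrinogen chains, C4A and C4B; C5 was added after its values were seen. The members, lists and rules were chosen with earlier results of these data known. Alternatives were a fit that ignored the numbers, arrayWeights, robust eBayes, scalings, level filters, removal of trends, leaving out each number, an adjusted p under 0.01, and C4A with C4B as 1 gene.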

Additional observations from a re-analysis of the deposited data

Results flagged for a closer look

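Within each plasmid, a library far from the other libraries of its group was sought by comparing the gap to its nearest neighbor with the range of the 4 values (Dixon's 95% limit for 4 values). Because the values of a pair mirror each other, this is the same for both plasmids and is given as a pair difference. Of the 40 genes, 6 exceeded the limit (15%), compared with 6.26% of all genes, and about 1 in 20 is given by chance. In 5 of the 6 the pair that stood apart was pair 2. The pair 2 difference of FGB was 0.771, and its other pairs lay between 0.099 and 0.131. For C4A it was -0.419, against -0.24 to -0.22, which is the same direction in all pairs. The pair 2 value of MASP1 was 0.267 (others 0.063 to 0.089), that of C8A 0.286 (others -0.027 to 0.022) and that of F11 0.067 (others -0.14 to -0.12). KNG1 stood apart in pair 1, at 0.0896 (others -0.0020 to 0.013). FGA and FGG had pair 2 values of similar size to FGB but stayed under the limit, because their other pairs were more spread.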

How the results depend on the processing

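Leaving out replicates 1 to 4 in turn (both libraries of a pair, 3 pairs in each fit) gave 0 called among the 40 genes. The count of lower genes was thus 0 in place of 1. In these fits 0.495% to 1.28% of all genes were called, against 2.19% with all pairs. The count of lower genes was also 0 at an adjusted p under 0.01, among the 31 genes with a mean value of at least 5, and with C4A and C4B as their mean or summed on the linear scale. Without the replicate block, 4 genes were called higher in place of 0, and 18.5% of all genes were called. The median log2 FC was computed under the settings that refit all 40 genes or those above a level and under leaving out each replicate. It was above 0 in each of these, from 0.0077 (without replicate 2) to 0.065. Among the log2 FC of single genes, 294 of 310 values with all replicates included had the same direction and call, 11 changed sign, 4 gained a call (without the block) and 1 lost it. Ignoring the block, robust eBayes and the level filters leave the log2 FC of a gene unchanged, so under these only the call could differ. Their part of the 294 therefore says nothing on direction. The median is likewise fixed without the block and with robust eBayes. With arrayWeights, F2 and MASP2 were at 0.013 and 0.014. When library totals (GRHL2 excluded) were made equal, which moved the median of all genes by 0.013, A2M, F12, F2, MASP2, PLG and SERPINF2 were at 0.0097, 0.012, 0.013, 0.012, 0.0081 and 0.0032. After removal of trends with length, GC content and level, C3, C4B and F13B were at -0.00063, -0.00098 and 0.0072. All of these were close to 0 and none was called.

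When replicates were left out, 19 of 160 values changed sign, and 66 of the other 141 moved by over 1.5 times; the cause was not tested. Without changing sign, log2 FC ranged from 0.00094 to 0.12 for C3, from -0.21 to -0.068 for VTN, from -0.18 to -0.035 for F5, from -0.14 to -0.032 for C1R and from 0.039 to 0.15 for TFPI. With a change of sign, log2 FC ranged from -0.029 to 0.099 for C4B, from -0.090 to 0.074 for A2M, from -0.033 to 0.073 for C4BPB, from -0.042 to 0.31 for C5, from -0.0050 to 0.099 for C8A, from -0.014 to 0.17 for C8G, from -0.050 to 0.15 for CD55, from -0.038 to 0.031 for F12, from -0.049 to 0.044 for F2, from -0.14 to 0.079 for F7, from -0.034 to 0.058 for MASP2, from -0.016 to 0.0011 for PLG, from -0.051 to 0.11 for SERPINC1, from -0.056 to 0.0019 for SERPIND1 and from -0.099 to 0.054 for SERPINF2.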

Other observations

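Of 6 genes needed for the secretion of these proteins (the vitamin K enzymes GGCX, VKORC1 and VKORC1L1, the cargo receptor LMAN1 with its partner MCFD2, and the protease FURIN), 0 were called higher or lower by limma. GGCX, the carboxylase of vitamin K-dependent clotting factors, was higher in 4 of 4 pairs by 0.13 ± 0.058 on the log2 scale (limma adjusted p = 0.293). It was picked after its value was seen, as the only one of the 6 with an unadjusted p under 0.05.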
